A study of Mus musculus with 2 samples.

Results

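Nuclear-encoded genes of oxidative phosphorylation were examined in single cells of mouse spinal cord, from 1 library of cord taken 5 days after injury and 1 library of uninjured cord. The genes were taken by symbol: names starting with Nduf (complex I), Sdha to Sdhd (complex II), Uqcr (complex III), Cox followed by 4 to 8 (complex IV) and Atp5 (complex V), together with Cycs, the electron carrier cytochrome c. Of the 27998 genes in the deposited tables, 93 had such a symbol. Of these, 87 had at least 20 unique molecular identifiers (UMIs, 1 for each captured RNA molecule) over both libraries, among 9066 genes that reached that minimum. They comprised 44 genes of complex I, 4 of complex II, 8 of complex III, 13 of complex IV, 17 of complex V and Cycs. The 6 below the minimum were Cox7a1 with 16 UMIs, Cox4i2 with 6, Ndufa4l2 with 1, and Cox7b2, Cox8b and Cox8c with 0.

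Both libraries were made from mice of the C57BL/6J strain carrying the Cx3cr1-CreER and Rosa26-tdTomato alleles. At postnatal week 4 they had received 4-hydroxytamoxifen (2 injections, 1 mg each), which switches on tdTomato for good in cells that express Cx3cr1, a chemokine receptor gene of microglia and of macrophages resident in tissues. Cords were dissected 4 weeks after tamoxifen, digested with collagenase and sorted for tdTomato. The injured library was taken 5 days after lysolecithin, a lipid that strips myelin from axons, and the uninjured library came from age-matched mice that had received the same tamoxifen. The labels give neither the number of animals nor their sex.

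Oxidative phosphorylation passes electrons from NADH (through complex I) or succinate (through complex II) to ubiquinone, then through complex III and cytochrome c to complex IV, where oxygen is reduced to water. Complexes I, III and IV pump protons across the inner mitochondrial membrane, and complex V, the ATP synthase, lets them flow back to make ATP. Complex II consists of nuclear-encoded subunits alone, whereas the other 4 complexes also hold subunits encoded by mitochondrial DNA. Activated macrophages and microglia are known to shift between glycolysis and oxidative phosphorylation.

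After filtering, the injured library held 577 cells with 3095511 UMIs (median 4396 per cell) and the uninjured library 695 cells with 2093084 UMIs (median 3003). The libraries shared 0 cell barcodes. Every ratio given here is the log2 of injured over uninjured depth-scaled UMI counts (CPM), and its 95% interval covers counting error only. There was 1 library in each group, so differences have no replicate check, no test was made and the values describe these libraries. The 10 microglial markers summed to 16228 CPM in the injured and 26374 CPM in the uninjured library, with none at 0. Markers of damage-associated microglia (6 of 6 detected in both) summed to 44875 CPM in injured and 4379 CPM in uninjured cells, and 6 markers of dividing cells to 166 and 7.17 CPM, with 0 and 1 of them at 0. Xist UMIs without Y-linked UMIs were found in 213 injured and 6 uninjured cells. Markers of interferon-responsive cells summed to 434 CPM in injured and 29.1 CPM in uninjured cells, with 0 and 1 of 5 at 0, and those of border macrophages to 128 and 69.8 CPM, with 1 and 0 of 7 at 0. Endothelial markers summed to 24.9 and 111 CPM (0 of 6 at 0 in both) and those of oligodendrocyte precursors to 15.5 and 0.956 CPM, with 0 and 3 of 4 at 0. The part of these markers and of the Xist cells in the members' ratios was not tested.

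As a group the members took a larger share of the RNA in injured cells. Together they held 61136 of the UMIs in the injured library, or 1.97%, and 30301 in the uninjured library, or 1.45%, a log2 ratio of 0.45 (0.43 to 0.47). Of the 87 measured members, 74 stood higher in the injured library at any size, beside 41.1% of all measured genes. The median log2 ratio was 0.38 over the members and −0.15 over all measured genes. The shift was broad and small: 26 members, or 29.9%, were at least 1.5-fold higher, beside 14.4% of all genes, and only Cox5a and Cox6a2 were at least 2-fold higher, beside 7.22% of all genes. In the other direction Ndufaf7 and Atp5s were at least 1.5-fold lower, beside 25.9% of all genes, and 0 members were at least 2-fold lower, beside 11.5%. The interval lay above 0 for 57 members, below 0 for 4 (Ndufaf7, Ndufs1, Sdha and Uqcrc1) and spanned 0 for 26. Restricting the comparison to genes with at least 200 UMIs left 77 members, of which 70 stood higher, beside 50.4% of 3034 genes, with medians of 0.44 for members and 0.0084 for those genes.

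**Figure D1:**
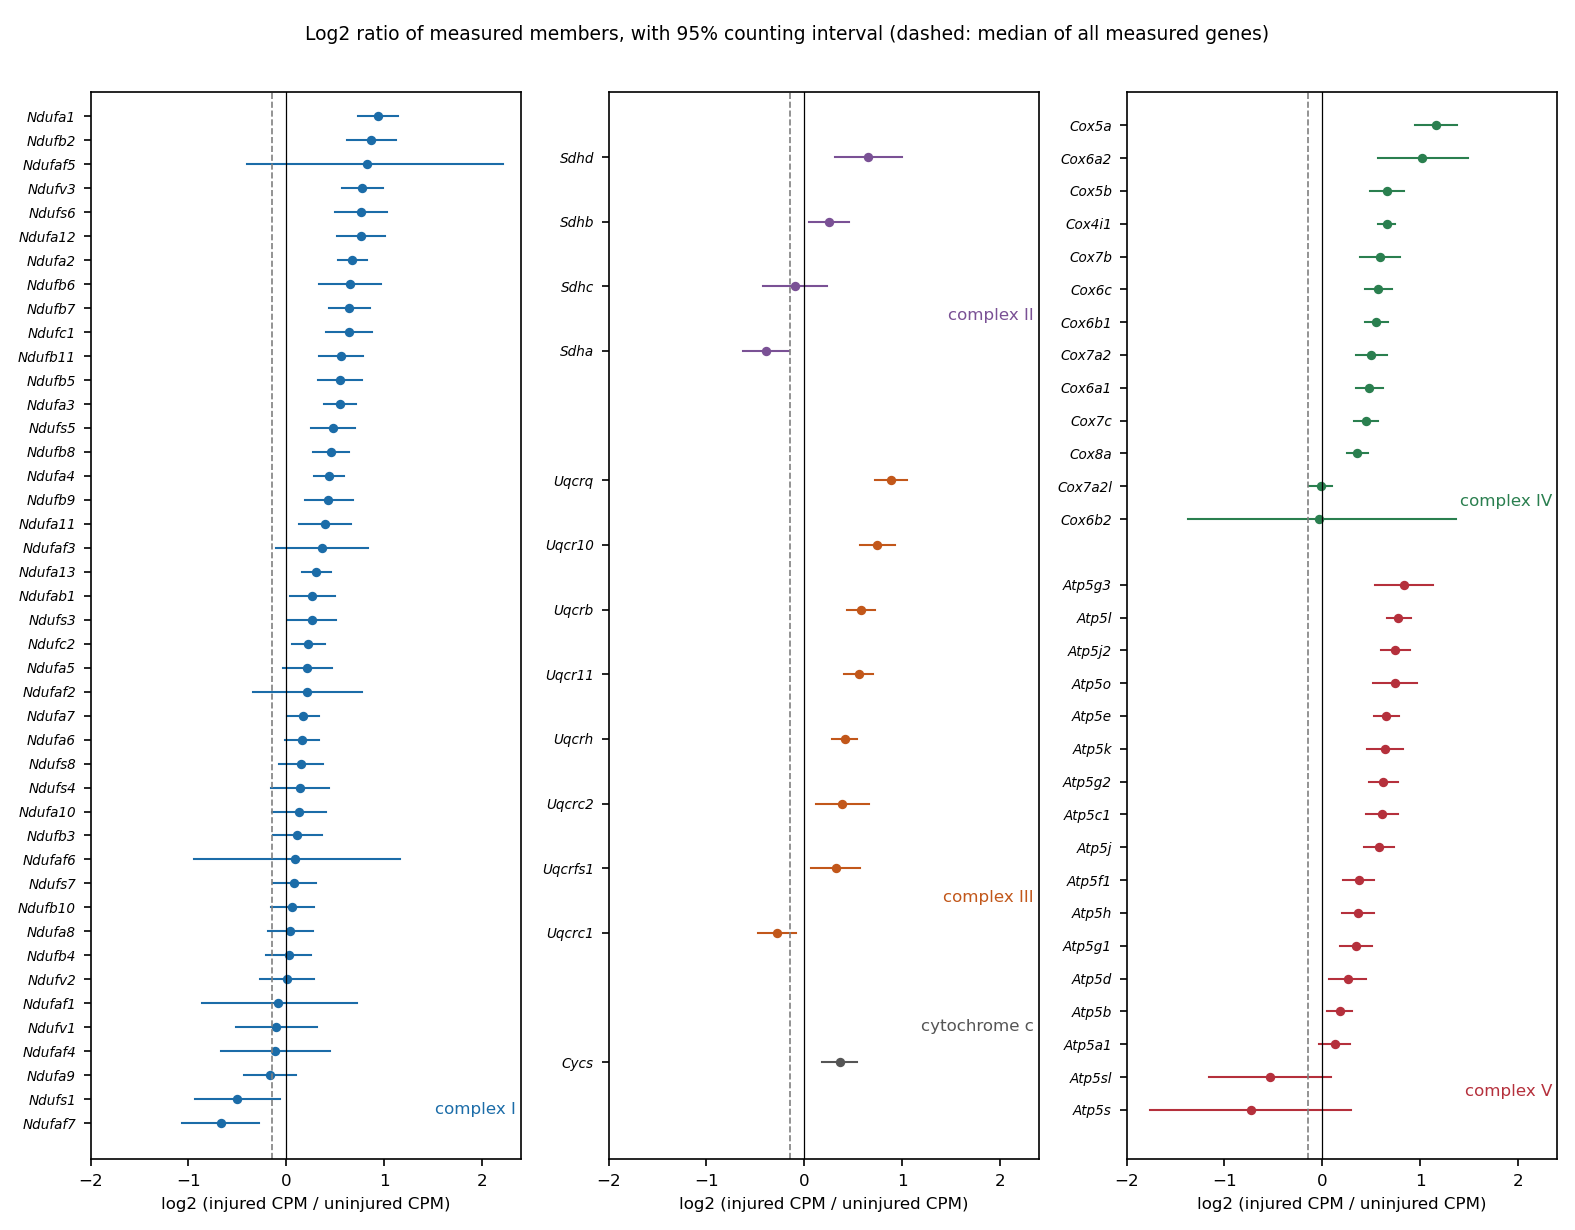
Log2 ratio of injured over uninjured CPM for 86 of the 87 measured members, grouped by complex and ordered by ratio, with 95% counting intervals (x axis, log2 scale; 1 library a group). The dashed line is the median of all measured genes at −0.15, and most members lie right of 0, with Cox5a at 1.16 and Cox6a2 at 1.02 farthest right.

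Complexes III, IV and V shared nearly the same ratio, complex I stood below them and complex II lowest. Summed over its genes, complex III took 0.232% of UMIs in injured and 0.163% in uninjured cells (log2 ratio 0.51, 0.45 to 0.57). Complex IV took 0.541% and 0.382% (0.50, 0.46 to 0.54), and complex V 0.4998% and 0.351% (0.51, 0.47 to 0.55). These 3 log2 ratios differed from one another by at most 0.0078, and the intervals of all 3 differences spanned 0. They lay farther apart with each cell thinned to 1500 UMIs (0.40, 0.51 and 0.42 for III, IV and V). Complex I took 0.636% of UMIs in injured and 0.493% in uninjured cells, a log2 ratio of 0.37 (0.33 to 0.40), which was 0.14 below complex V (complex V minus complex I, 0.090 to 0.20). Complex II, which is also the succinate dehydrogenase of the tricarboxylic acid cycle, took 0.0422% of UMIs in injured and 0.0399% in uninjured cells. Its log2 ratio of 0.080 had an interval that spanned 0 (−0.046 to 0.21), and the difference from complex I was −0.29 (−0.42 to −0.16). Within the members' own UMIs, complex I made up 32.2% in injured and 34.0% in uninjured cells, complex II 2.14% and 2.76%, and complex V 25.3% and 24.2%.

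Within complex I the summed ratios differed between core subunits and supernumerary ones, the accessory proteins that surround the core. The 7 nuclear core subunits of complex I, which carry its flavin and iron-sulfur clusters, had a summed log2 ratio of 0.072 (−0.027 to 0.17). Its 29 supernumerary subunits had 0.42 (0.38 to 0.46), and 28 of the 29 stood higher, beside 41.1% of all measured genes. The difference between the sums was 0.35 (0.24 to 0.46). Single genes of the 2 groups overlapped, and several supernumerary ones lay below the core gene Ndufs3 (0.26). In complex III the 3 genes grouped here as core, Uqcrc1, Uqcrc2 and Uqcrfs1, summed to 0.069 (−0.064 to 0.20). Cyc1, which the symbol rule does not cover, is not among them. The 5 supernumerary ones summed to 0.61 (0.54 to 0.68), a difference of 0.54 (0.39 to 0.69). Of those 3 core genes Uqcrc1 alone was below 0 (−0.28), Uqcrc2 (0.38) and Uqcrfs1 (0.32) had intervals above 0, and the median was 0.32. The 7 assembly factors with a Ndufaf symbol, which help build complex I but are not part of the finished enzyme, summed to −0.077 (−0.29 to 0.14). In complex V the ratio was 0.38 (0.31 to 0.44) for the 5 subunits of the catalytic F1 head, 0.49 for the 4 of the peripheral stalk, 0.55 for the 3 genes of the c-ring and 0.74 (0.66 to 0.82) for the 3 other membrane subunits. The last group exceeded the F1 head by 0.36 (0.26 to 0.47).

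**Figure D2:**
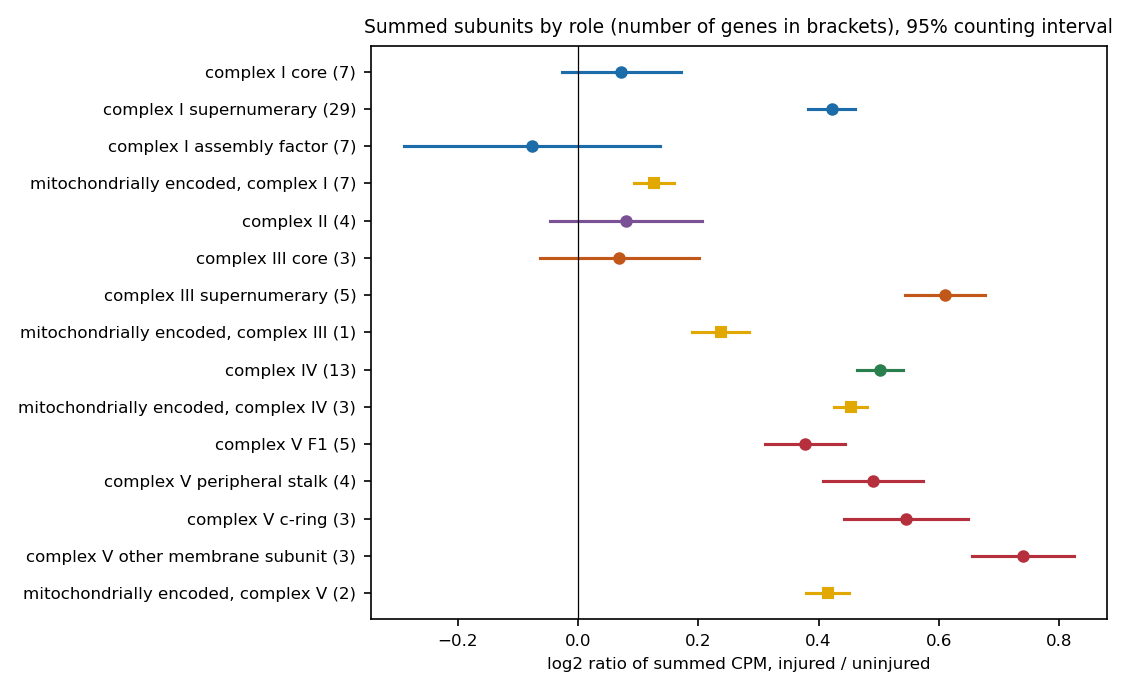
Log2 ratio of injured over uninjured summed CPM for subunits grouped by role, with the number of genes in brackets and 95% counting intervals (1 library a group); squares are subunits encoded by mitochondrial DNA. The summed core subunits of complexes I and III (0.072 and 0.069) and complex II (0.080) lie near 0, for complex III with a median of 0.32 over its 3 core genes, and supernumerary subunits of complexes I and III lie at 0.42 and 0.61.

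In complex I the highest ratio was that of Ndufa1, an X-linked supernumerary subunit of the membrane arm, with 776 UMIs (250.7 CPM) in injured and 274 (131 CPM) in uninjured cells. Its log2 ratio was 0.94 (0.74 to 1.14). Ndufb2, another membrane arm subunit, had 489 and 181 UMIs (0.87, 0.62 to 1.12), and Ndufv3, a small subunit beside the flavin site, had 670 and 264 (0.78, 0.57 to 0.99). All 3 are accessory proteins. Ndufa2 and Ndufa13, the complex I genes with the most UMIs under the naming rule, had 1286 injured and 544 uninjured UMIs (0.68) and 1049 and 574 UMIs (0.31). An annotated gene, Yjefn3, overlaps Ndufa13 on the same strand, so reads of the pair may not be separable. The same holds for 12 members in all, Cox4i1 (with Gm20388) and Ndufb2 (with Gm42420) among them. At the low end Ndufs1, the largest core subunit, with several iron-sulfur clusters, had 93 UMIs in injured and 89 in uninjured cells, a log2 ratio of −0.50 (−0.94 to −0.07). Ndufaf7, a methyltransferase needed to assemble complex I, had 107 and 115 UMIs (−0.67, −1.06 to −0.28). Ndufa9, the only supernumerary subunit below 0, had 281 injured and 213 uninjured UMIs, and its interval spanned 0 (−0.16, −0.43 to 0.10). Of further core subunits, the log2 ratios of Ndufs7, Ndufs8, Ndufv1 and Ndufv2 lay between −0.10 and 0.15 with intervals that spanned 0, and that of Ndufs3 was 0.26 (0.018 to 0.51). Ndufa4, which carries a complex I symbol but is known as a subunit of complex IV, had 1008 injured and 503 uninjured UMIs (0.44, 0.28 to 0.60).

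The 4 genes of complex II did not share a direction. Sdha, the flavoprotein that oxidises succinate, had 309 UMIs (99.8 CPM) in injured and 274 (131 CPM) in uninjured cells, a log2 ratio of −0.39 (−0.63 to −0.15). Sdhb, the iron-sulfur subunit, had 566 and 321 UMIs (0.25, 0.054 to 0.46). The membrane anchors split as well: Sdhd had 244 injured and 105 uninjured UMIs (0.65, 0.32 to 1.00), and Sdhc had 188 and 136 (−0.097, −0.42 to 0.23). The near-zero ratio of the complex was therefore a sum of 2 genes above 0 and 2 below it. The side of Sdhb and Sdhc was less settled. With each cell thinned to 1500 UMIs Sdhb was at 0.012 and Sdhc at −0.74, and with TMM factors Sdhc was at 0.051.

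In complex III the core subunit Uqcrc1 stood apart from the other 7 genes. It had 467 UMIs in injured and 383 in uninjured cells, a log2 ratio of −0.28 (−0.48 to −0.08). Uqcrc2, its partner in the core, had 336 and 174 UMIs (0.38, 0.12 to 0.66; −0.034 with each cell thinned to 1500 UMIs), and the Rieske iron-sulfur protein Uqcrfs1 had 379 and 205 (0.32, 0.073 to 0.57). The supernumerary subunits were all higher. Uqcrq had 1172 injured and 429 uninjured UMIs (0.89, 0.72 to 1.05) and Uqcr10, a small membrane-spanning subunit, had 890 and 359 (0.75, 0.57 to 0.93). Uqcrb and the hinge protein Uqcrh, with the most UMIs of the complex, had 1348 and 609 (0.58) and 1443 and 733 (0.41), and Uqcr11 had 1144 and 526 (0.56). Cyc1, the cytochrome c1 of the same complex, which the symbol rule does not cover, had 259 injured and 217 uninjured UMIs (−0.31, −0.58 to −0.042), so that Uqcrc1 and Cyc1 were lower and Uqcrc2 and Uqcrfs1 higher. Cytochrome c itself, Cycs, which also triggers apoptosis when released from mitochondria, had 750 injured and 394 uninjured UMIs (0.36, 0.19 to 0.54).

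Complex IV held the 2 members past 2-fold. Cox5a, a matrix-side subunit present in all tissues (ENSMUSG00000000088, chromosome 9, 57521274 to 57532426 in GRCm38), had 784 UMIs (253 CPM) in injured and 237 (113 CPM) in uninjured cells. Its log2 ratio was 1.16 (0.95 to 1.38), the highest of the 87. In cells with 2000 to 4000 UMIs it was 0.51, no longer past 2-fold and below Cox6a2 (1.41), Atp5l (0.79) and Ndufa1 (0.71) there. Cox6a2 had 165 injured and 55 uninjured UMIs (1.02, 0.57 to 1.49). It encodes the isoform of subunit 6a known from heart and skeletal muscle, and its locus (chromosome 7, 128205435 to 128206387) lies within Itgad on the opposite strand. Cox6a1, the widely expressed isoform, had 1320 and 639 UMIs (0.48, 0.34 to 0.62).

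The remaining complex IV genes moved in a narrow band, with 2 exceptions. Cox4i1, a regulatory subunit and the member with the most UMIs, had 3490 in injured and 1495 in uninjured cells (0.66, 0.57 to 0.75). Cox5b, which binds zinc, had 933 and 398 (0.66), Cox7c 1620 and 804 (0.45) and Cox8a 1991 and 1050 (0.36). Cox7b, Cox6c, Cox6b1 and Cox7a2 lay between 0.50 and 0.59. One exception was Cox7a2l, which is known to help complexes III and IV join into a supercomplex in mouse and of which C57BL/6 mice carry a shortened form. It had 1533 injured UMIs (495 CPM) and 1048 uninjured UMIs (501 CPM), a log2 ratio of −0.016 (−0.13 to 0.10), against 0.50 (0.35 to 0.66) for its relative Cox7a2 with 1058 and 505 UMIs. The ratio of Cox7a2l was less settled. It was 0.25 with each cell thinned to 1500 UMIs, 0.15 with the mean of per-cell CPM and 0.13 with TMM factors. Apart from Cox6a2, isoforms linked to other tissues were scarce. The muscle isoform Cox7a1 had 13 UMIs in injured and 3 in uninjured cells, and the lung isoform Cox4i2 5 and 1, whereas the widely used Cox6b1 had 1835 and 846 (0.55). The testis isoform Cox6b2, the other exception, had 13 injured and 9 uninjured UMIs, and its log2 ratio of −0.034 had a wide interval (−1.37 to 1.37).

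In complex V, 15 of 17 genes (88.2%) stood higher, beside 41.1% of all measured genes. All of the 15 true subunits were among those higher. The highest was Atp5g3, with 353 injured and 134 uninjured UMIs (0.83, 0.54 to 1.13), but in cells with 2000 to 4000 UMIs it was at 0.16 and Atp5l at 0.79. Atp5g1, Atp5g2 and Atp5g3 encode the same mature c subunit of the rotor ring with different import sequences, and their ratios ran from 0.35 (Atp5g1, 857 and 456 UMIs) through 0.62 (Atp5g2, 1222 and 537 UMIs) to 0.83. The interval of Atp5g1 (0.18 to 0.51) ended below that of Atp5g3. The membrane subunits Atp5l and Atp5j2 had 1917 injured and 755 uninjured UMIs (0.78, 0.66 to 0.90) and 1247 and 502 UMIs (0.75, 0.60 to 0.90), and Atp5l is known to take part where pairs of ATP synthases join. In the F1 head the catalytic subunit Atp5b had 1365 injured and 815 uninjured UMIs (0.18, 0.053 to 0.31). Atp5a1, its non-catalytic partner, had 872 and 540 (0.13, −0.030 to 0.28). The small central stalk subunit Atp5e had 1587 and 681 (0.66, 0.53 to 0.79), Atp5c1 961 and 426 (0.61, 0.44 to 0.78) and Atp5d 645 and 364 (0.26). Atp5s and Atp5sl, which carry the symbol without being subunits, were the only complex V genes below 0, with 17 injured and 19 uninjured UMIs (−0.73) and 46 and 45 UMIs (−0.53), and both intervals spanned 0.

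In the whole libraries the partner subunits encoded by mitochondrial DNA also stood higher, least in complex I, and by less than the nuclear genes. All 13 together took 2.59% of UMIs in injured and 2.05% in uninjured cells (0.34, 0.32 to 0.35). Of the 13, 10 (76.9%) stood higher, beside 41.1% of all measured genes. With each cell thinned to 1500 UMIs the 13 summed to 0.34 and the members to 0.37. In cells with 2000 to 4000 UMIs the order turned, with the 13 at 0.30, above the members' sum there. By complex the whole-library ratio was 0.13 (0.093 to 0.16) for the 7 of complex I and 0.24 for the 1 of complex III. It was 0.45 (0.43 to 0.48) for the 3 of complex IV and 0.42 for the 2 of complex V. The nuclear genes exceeded their mitochondrial partners by 0.24 (0.19 to 0.29) in complex I and by 0.27 (0.19 to 0.34) in complex III, but by 0.049 (0.0021 to 0.096) in complex IV and 0.095 (0.042 to 0.15) in complex V. Single genes varied: mt-Co1 had 12579 injured and 5517 uninjured UMIs (0.62, 0.58 to 0.67) and mt-Atp6 had 18496 and 9215 (0.44), whereas mt-Atp8 had 315 and 324 (−0.61, −0.83 to −0.38). mt-Nd3 was at −0.24 (−0.42 to −0.066), mt-Nd2 at −0.038, and the other mitochondrial genes, mt-Nd1, mt-Nd4, mt-Nd4l, mt-Nd5, mt-Nd6, mt-Cytb, mt-Co2 and mt-Co3, between 0.050 and 0.42.

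Cell by cell, the injured library sat higher as a distribution and also reached farther up. Members made up a median of 1.77% of a cell's UMIs in injured cells (quartiles 1.42% and 2.18%) and 1.43% in uninjured cells (quartiles 1.19% and 1.65%). With each cell thinned to 1500 UMIs the medians were 1.73% over 567 injured and 1.40% over 604 uninjured cells, leaving out 10 injured and 91 uninjured cells below that depth. Thinned cells held a median of 21 detected members in injured and 18 in uninjured cells.

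The size of the difference varied with the depth of the cells compared. In cells with 2000 to under 3000 UMIs the members' pooled share was 1.58% in 81 injured and 1.42% in 191 uninjured cells, and from 3000 to under 4000 UMIs it was 1.72% and 1.42%. It was 1.83% in injured and 1.46% in uninjured cells from 4000 to under 6000 UMIs, and 2.15% over 189 injured against 1.60% over 10 uninjured cells from 6000 UMIs on. The injured share thus climbed with depth from 2000 UMIs on, while the uninjured share stayed between 1.42% and 1.46% from 2000 to under 6000 UMIs. Below 2000 UMIs it was 1.99% in 31 injured and 1.51% in 156 uninjured cells. In cells with 2000 to 4000 UMIs, 212 injured and 408 uninjured with medians of 3202 and 3051.5 UMIs, the members' median log2 ratio was 0.18 and that of all genes −0.085. There 61 members (70.1%) stood higher, beside 45.9% of all genes, and 7 (8.05%) were at least 1.5-fold higher, beside 16.6%, so that members past 1.5-fold were a smaller share than among all genes in these cells. The complex sums were 0.13 for complex I, −0.029 for II, 0.31 for III, 0.35 for IV and 0.24 for V. The core subunits of complexes I and III lay at −0.12 and −0.048 in those cells and the supernumerary ones at 0.18 and 0.40.

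**Figure D3:**
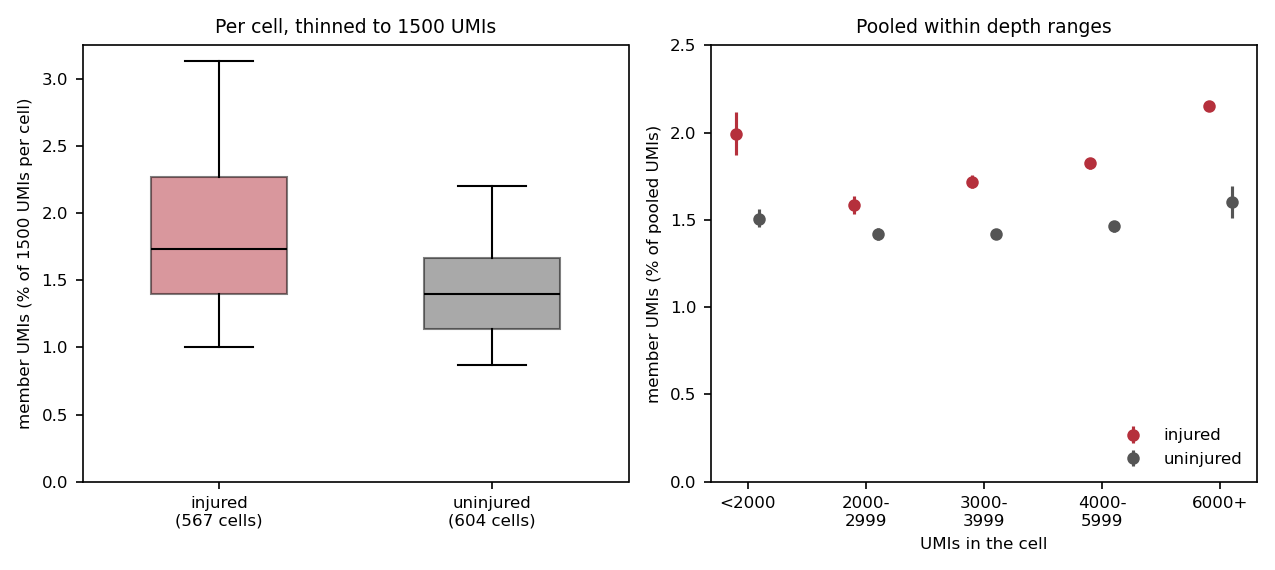
Left, members' share of 1500 UMIs per cell, as the median, quartiles and 5th and 95th percentiles over 567 injured and 604 uninjured cells; right, members' pooled share of UMIs in cells of each depth range, with 95% Poisson intervals. The injured share lies above the uninjured one in each range and grows from 1.58% to 2.15% between 2000 UMIs and the deepest range.

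Cells of both libraries were then clustered with the members, the mitochondrial genes and sex-linked genes left out, to see where members stood higher. The clusters are described by their leading genes and received no cell type name. The members' share was highest in 30 injured cells led by Fabp7, Pllp and the mitotic kinase gene Pbk (cluster 6), at 2.58% of UMIs. Next came cluster 5, led by Apoc1, Lgals3 and Spp1, at 2.48% in 62 injured and 1.99% in 33 uninjured cells, and cluster 4, led by Lpl, Igf1 and Fn1, at 2.13% in 150 injured cells with a median of 8388.5 UMIs. Interferon-induced genes (Rsad2, Ifit3) led cluster 7, where the share was 1.74% in injured cells. Cluster 2, led by the MHC class II genes H2-Eb1 and H2-Aa, was at 1.85% in 22 injured cells. Cluster 8, led by Cldn5, Fabp4 and Itm2a, was at 1.60% in 196 uninjured cells, above the injured shares of clusters 0 and 3. The 33 uninjured cells of cluster 5 had a median of 1550 UMIs. In the clusters that both libraries filled, the injured share was 1.54% and the uninjured share 1.36% in cluster 0 (Rnd1, Ddit4), 1.62% and 1.31% in cluster 1 (Ccl5, Slc7a11), and 1.52% and 1.35% in cluster 3 (Bmp2k, Kdm6b). The log2 ratios within clusters 0, 1, 3 and 5 were 0.18, 0.30, 0.17 and 0.32, all with intervals above 0 and all below the 0.45 of the whole libraries.

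Across clusters of injured cells complex I ranged from 0.452% of UMIs (cluster 3) to 0.865% (cluster 6), complex IV from 0.427% (cluster 0) to 0.709% (cluster 5) and complex II from 0.0324% (cluster 3) to 0.0552% (cluster 6). Mitochondrially encoded genes had another order: their injured share was 2.36% in cluster 6, where the members were highest, and 2.82% in cluster 3, where they were lowest. Cox5a stood at 374 CPM in cluster 6 and 316 CPM in cluster 4 among injured cells, against 92.8 and 98.9 CPM in injured clusters 0 and 3. Cox6a2 ran the other way, at 27.1 and 42.9 CPM in clusters 6 and 4, and 71.4 and 98.9 CPM in clusters 0 and 3. Its levels there rested on 5, 55, 10 and 11 UMIs. Cox7a2l had 381 CPM in injured cluster 4 and 309 CPM in cluster 6, below its 580 to 746 CPM in injured clusters 0, 1, 3 and 5. In clusters 0 and 3 it had 693 and 746 CPM in injured cells, against 463 and 451 CPM in uninjured cells. In clusters 1 and 5 it had 580 and 694 CPM in injured cells, against 611 and 745 CPM in uninjured cells. Uqcrq had 514 and 460 CPM in injured clusters 6 and 4 and 164 and 198 CPM in clusters 0 and 3. In uninjured cells of clusters 0 and 3, Cox5a (112 and 109 CPM) and Uqcrq (195 and 198 CPM) were no lower. In clusters 1 and 5 injured cells held more of both. Cox5a had 148 and 280 CPM there against 93.4 and 88.7 CPM, and Uqcrq 270 and 491 CPM against 178 and 319 CPM. The uninjured Cox5a values in clusters 1 and 5 rested on 11 and 5 UMIs.

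**Figure D4:**
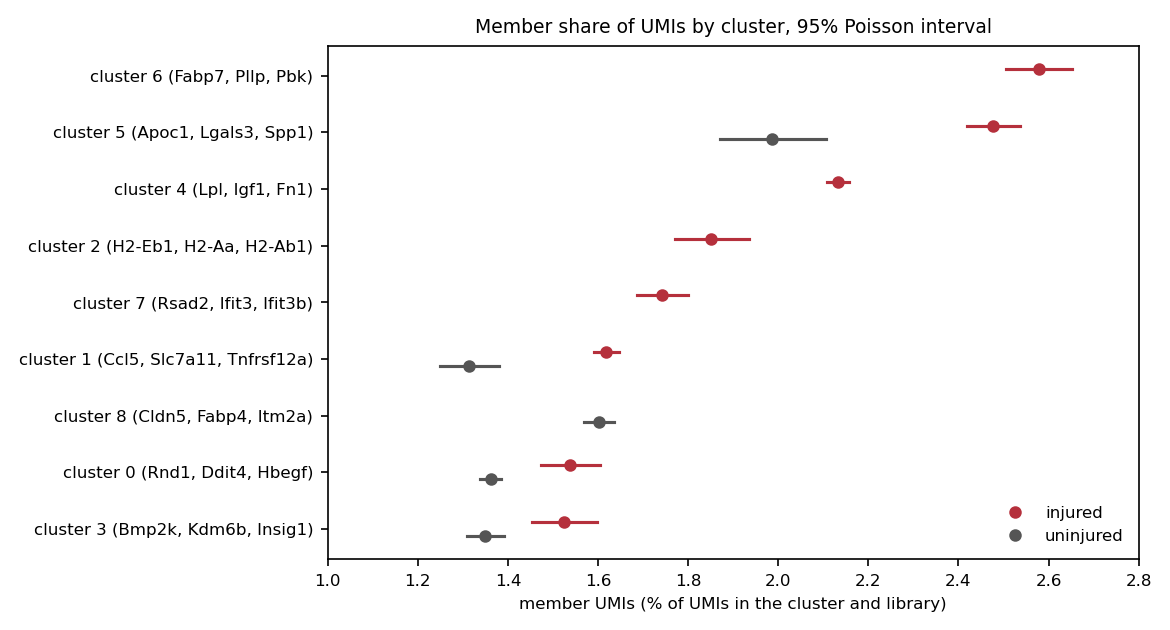
Members' share of UMIs in each cluster and library (x axis, percent) with 95% Poisson intervals, for clusters with at least 20 cells of that library, named by number and 3 leading genes. Injured points run from 1.52% in cluster 3 to 2.58% in cluster 6, and in clusters 0, 1, 3 and 5 the injured point lies right of the uninjured one.

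The 3 X-linked members, Ndufa1, Ndufb11 and Cox7b, had a summed log2 ratio of 0.71 (0.59 to 0.83). In cells with Y-linked UMIs alone, 147 injured and 235 uninjured, Ndufa1 was at 0.83, Ndufb11 at 0.74 and Cox7b at 0.79, against 0.94, 0.56 and 0.59 in all cells. In cells with 2000 to 4000 UMIs they were at 0.71, 0.41 and −0.044. Over the 147 injured and 235 uninjured cells picked by Y-linked UMIs, the members' median log2 ratio was 0.43, so members stood higher there as well.

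Members differ in length, and shorter ones had higher ratios. The spliced length of the principal GENCODE transcript and the log2 ratio had a Spearman rho of −0.46 over the 87 members and −0.11 over 8711 other protein-coding genes, given as a description since genes share the libraries and are not independent. The 5 members under 500 nucleotides (nt) had a median log2 ratio of 0.66 and the 25 from 500 to under 700 nt 0.48. The median was 0.57 for the 16 members from 700 to under 1000 nt, 0.26 for the 30 from 1000 to under 2000 nt and 0.13 for the 11 of 2000 nt or more. Other protein-coding genes in the same ranges had medians of 0.18, 0.34, 0.15, −0.079 and −0.21, so that the members lay above them in every range. Among genes with at least 200 UMIs the members also lay above in every range. The medians were closest from 500 to under 700 nt, at 0.48 for members and 0.42 for other genes. Supernumerary subunits of complex I had a median length of 763 nt and its core subunits 1623 nt, those of complex III 535 and 1653 nt. The part of length in the difference between core and supernumerary subunits was not tested. Exceptions by transcript length existed in both directions: the principal transcript of Ndufb2 was 4371 nt long at a ratio of 0.87, and Cox7a2l had 1076 nt at −0.016. The coding part of that Ndufb2 transcript was 315 nt, so it is an exception by transcript length alone. Coding length and the log2 ratio had a Spearman rho of −0.51 over the members and −0.17 over the other protein-coding genes.

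**Figure D5:**
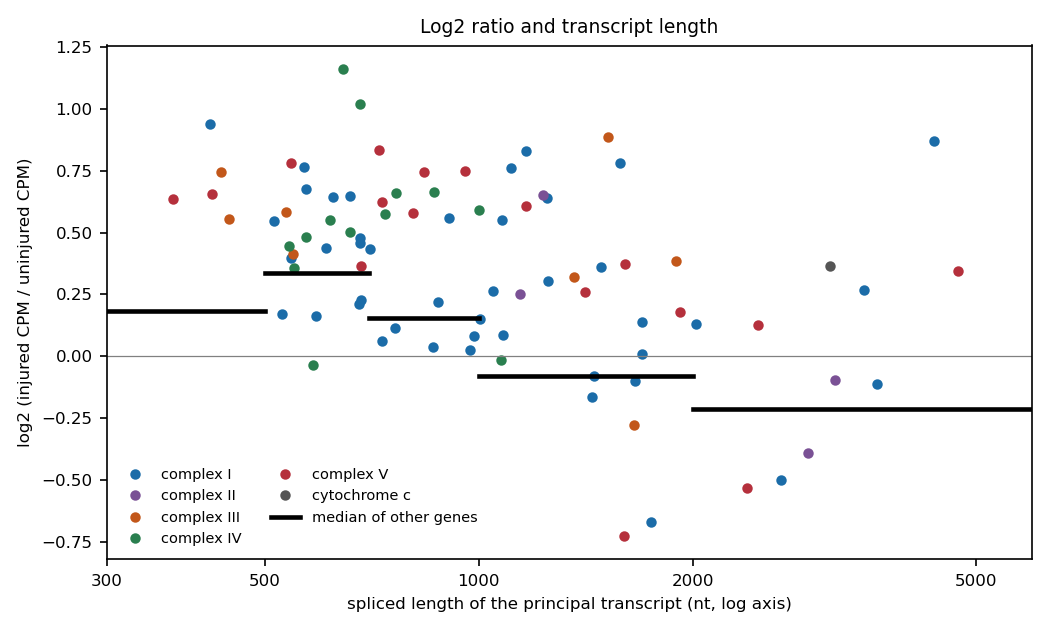
Log2 ratio of injured over uninjured CPM against the spliced length of the principal transcript (log axis, nt) for 86 of the 87 members, coloured by complex; black bars are medians of other protein-coding genes in each length range. Most points below 1000 nt lie above 0, and the members' medians fall from 0.66 under 500 nt to 0.13 at 2000 nt or more.

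The transcription factors NRF1 and NRF2 (an ETS factor, also called GABP) and YY1 are known to drive many respiratory chain genes. RefSeq promoter windows, 250 bases before to 50 after the gene start in GRCm38.p6, were matched for 71 of the 87 members and searched on both strands. The NRF1 letters, the half-site GCGCA followed by its reverse complement TGCGC, were in the windows of 7 members (9.86%), namely Atp5g2, Atp5k, Cox6a1, Ndufa11, Ndufaf4, Ndufaf5 and Uqcrc1, beside 2.69% of 6913 other measured genes and 0.971% of all windows. The YY1 letters AAGATGGCG were in 9.86% of member windows and 4.19% of those of other measured genes, the ETS letters CCGGAAG in 23.9% and 23.1%, and the GC box GGGCGG in 45.1% and 71.0%. A match is only a description of the letters. The median log2 ratio was 0.48 for the 7 members with the NRF1 letters and 0.36 for the 64 without. For members with and without the other letters it was 0.55 and 0.35 (ETS), 0.58 and 0.38 (YY1), and 0.29 and 0.45 (GC box). Windows of 3 members with the NRF1 letters are printed because they come from different complexes and include both a higher and a lower gene: Atp5g2 (0.62) and Cox6a1 (0.48) against Uqcrc1 (−0.28). Capitals mark the NRF1 letters and, in Cox6a1, the ETS letters on the other strand (CTTCCGG).
Atp5g2 (GRCm38.p6, chr15:102670998-102671297, minus strand): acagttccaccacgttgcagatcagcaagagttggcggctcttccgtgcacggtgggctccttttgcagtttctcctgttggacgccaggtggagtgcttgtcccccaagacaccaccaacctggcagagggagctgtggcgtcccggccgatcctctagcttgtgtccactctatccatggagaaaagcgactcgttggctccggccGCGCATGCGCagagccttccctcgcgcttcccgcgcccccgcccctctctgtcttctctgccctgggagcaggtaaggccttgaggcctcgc
Cox6a1 (GRCm38.p6, chr5:115348909-115349208, minus strand): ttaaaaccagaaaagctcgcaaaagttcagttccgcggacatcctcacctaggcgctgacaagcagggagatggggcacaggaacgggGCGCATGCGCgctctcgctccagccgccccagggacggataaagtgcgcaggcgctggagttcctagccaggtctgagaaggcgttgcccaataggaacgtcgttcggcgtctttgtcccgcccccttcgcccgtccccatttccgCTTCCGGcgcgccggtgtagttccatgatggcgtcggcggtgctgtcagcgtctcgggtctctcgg
Uqcrc1 (GRCm38.p6, chr9:108936398-108936697, plus strand): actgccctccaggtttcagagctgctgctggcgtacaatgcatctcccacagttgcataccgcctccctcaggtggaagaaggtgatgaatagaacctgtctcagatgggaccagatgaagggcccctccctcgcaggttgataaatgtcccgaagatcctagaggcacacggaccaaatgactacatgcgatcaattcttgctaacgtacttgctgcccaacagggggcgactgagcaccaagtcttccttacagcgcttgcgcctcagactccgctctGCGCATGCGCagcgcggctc
In Atp5g2 and Cox6a1 the NRF1 letters begin 42 and 162 bases before the RefSeq gene start, and in Uqcrc1 they begin 30 bases after it. By the GENCODE position of Atp5g2 (102662864 to 102672352, minus strand) its window lies inside the gene.

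Subunits outside the symbol rule included 2 with ratios like those of their complex. Usmg5 and 2010107E04Rik, small membrane proteins of the ATP synthase, had 922 injured and 365 uninjured UMIs (0.77, 0.60 to 0.95) and 1227 and 491 UMIs (0.76, 0.60 to 0.91), close to the 0.74 of the other membrane subunits of complex V. AA467197, whose product is related to Ndufa4, had 7 and 2 UMIs. Atpif1, the inhibitor that blocks the ATP synthase from running backwards, had 991 and 592 UMIs (0.18, 0.030 to 0.33).

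Genes around the chain did not share the members' shift to the same degree. Of 36 measured assembly factors outside the rule, 20 (55.6%) stood higher, beside 41.1% of all genes. At least 1.5-fold higher were 4 (11.1%, beside 14.4%) and at least 1.5-fold lower 2 (5.56%, beside 25.9%), with a median of 0.10. The highest was Cox16 (43 injured and 14 uninjured UMIs, 1.05), and Coa5 (0.99) and Uqcc2 (503 and 208 UMIs, 0.71) followed. Of 8 carriers, pores and inhibitor genes, 7 (87.5%) stood higher, beside 41.1% of all genes. At least 1.5-fold higher was 1 (12.5%, beside 14.4%). Ucp2, a mitochondrial carrier of the uncoupling protein family, led them with 978 and 331 UMIs (1.00, 0.82 to 1.18). The phosphate carrier Slc25a3 was at 0.41 and the pore gene Vdac3 at 0.41, whereas Slc25a5, which exchanges ADP for ATP, had 2994 injured and 2178 uninjured UMIs (−0.11, −0.19 to −0.025).

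The tricarboxylic acid cycle and its pyruvate dehydrogenase branch held genes at both ends. Of 19 measured genes 15 (78.9%) stood higher, beside 41.1% of all genes. There were 3 (15.8%) at least 1.5-fold higher, beside 14.4%, and 3 at least 1.5-fold lower, beside 25.9%. Citrate synthase, Cs, had 163 injured and 66 uninjured UMIs (0.74, 0.32 to 1.17). Idh2, the NADP-dependent isocitrate dehydrogenase of mitochondria, had 124 and 241 UMIs (−1.52, −1.85 to −1.20), and the summed list was at −0.076 (−0.16 to 0.0060). Pdk1 and Pdk3, kinases that switch off pyruvate dehydrogenase, stood on opposite sides, with 69 injured and 108 uninjured UMIs (−1.21) and 84 and 32 UMIs (0.83). Acod1, which makes itaconate, an inhibitor of succinate dehydrogenase, had 61 UMIs in 33 injured cells and 0 in the uninjured library, which is at least 13.7-fold higher against a floor of 3 counts in that library.

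Regulators of mitochondrial biogenesis were sparse. Of 13 measured genes 5 (38.5%) stood higher, beside 41.1% of all genes, 1 (7.69%) was at least 1.5-fold higher, beside 14.4%, and 3 (23.1%) were at least 1.5-fold lower, beside 25.9%. Tfam, which packages and transcribes mitochondrial DNA, had 34 injured and 53 uninjured UMIs (−1.21, −1.87 to −0.56), and Polg2, the accessory subunit of the mitochondrial DNA polymerase, had 25 and 38 (−1.17). Slirp, which stabilises mitochondrial messenger RNA, had 438 and 193 (0.62, 0.37 to 0.87). Nrf1 had 57 and 41 UMIs (−0.089, −0.69 to 0.53), Ppargc1b 6 and 4, and Ppargc1a, the coactivator known as PGC-1alpha, had 0 in both libraries.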

How the data were processed

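The authors deposited UMI counts per gene and barcode, as whole numbers, from 10x Chromium 3′ version 2 libraries of 580 injured and 705 uninjured barcodes; per the labels, 2500 cells were sorted for each library. Seurat 2.1.0, Cell Ranger 2.0.1, STAR and build GRCm38.p5 are listed in the submitters' processing notes. How each was applied, and the gene annotation, the sources used here do not say. Cells needed 200 or more genes and 10% or less mitochondrial UMIs, which removed 3 injured and 10 uninjured barcodes. UMIs were summed per library and scaled to CPM. Intervals are exact 95% intervals of a ratio of Poisson counts (Clopper-Pearson interval of the injured share) or of a Poisson count; differences between log2 ratios have normal-approximation intervals. All cover counting error only. Doublets were removed by scatter gates per the labels, and no doublet caller was run. Clustering used scanpy 1.11.5 (2000 variable genes, 20 components, 15 neighbours, resolution 0.6). Lengths and positions came from GENCODE M21. The calculation was tested on simulated data. Alternatives were TMM factors (edgeR 4.0.16), DESeq2 1.42.0 size factors, thinning to 1500 UMIs, the mean of per-cell CPM, other filters and subsets of cells.

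Members named in the text are those at least 2-fold changed, the 3 highest and 3 lowest of each complex with at least 100 UMIs, the 2 with the most UMIs, all of complex II, Cycs and isoform groups; up to 3 genes were named from each other list. The values of 1 member are not reported here by name. Other members and genes in the text were picked after their values were seen. The members and lists were chosen with earlier results of these data known. There was 1 library in each group, so no count test was run.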

Additional observations from a re-analysis of the deposited data

How the results depend on the processing

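No alternative turned the direction of the members' median or of a complex's sum, except for complex II, whose main interval spans 0. Values are log2 ratios unless they are counts of members past 1.5-fold in either direction. The share of all genes past 1.5-fold was counted only with the reported settings and in cells with 2000 to 4000 UMIs. Counts under the other settings have no such share beside them. TMM factors and DESeq2 size factors shifted every ratio by 0.15 and 0.19, those of all other genes included. The median of all genes was then −0.0012 and 0.037. With TMM factors the sum of all members was 0.60, complexes I to V stood at 0.52, 0.23, 0.65, 0.65 and 0.66, and 40 members were higher and 0 lower. With DESeq2 size factors these were 0.63, then 0.55, 0.27, 0.69, 0.69 and 0.70, with 42 higher and 0 lower. With each cell thinned to 1500 UMIs the sum was 0.37, complexes I to V stood at 0.25, −0.076, 0.40, 0.51 and 0.42, and 17 were higher and 5 lower. With the mean of per-cell CPM the sum was 0.37, complexes I, III and V stood at 0.26, 0.42 and 0.42, and 16 were higher. In cells with 2000 to 4000 UMIs the median was 0.18, the sum 0.24, complexes I, III, IV and V stood at 0.13, 0.31, 0.35 and 0.24, and 7 were higher. In cells with Y-linked UMIs alone the sum was 0.48, complex I stood at 0.40 and 1 member was lower. Without 50 injured and 60 uninjured barcodes holding markers of non-myeloid cells complex I stood at 0.33. With totals that left out the 14 genes with most UMIs the sum was 0.42, and with a minimum of 100 UMIs 1 member was lower. The range of 2000 to 4000 UMIs and the totals without the top genes were settings added once results had been seen. The cause of these moves was not tested, apart from the constant shift by the 2 factors. The members' median exceeded that of all genes by 0.53 as reported, by 0.42 with thinning, by 0.26 in cells with 2000 to 4000 UMIs and by 0.46 to 0.56 in the others.

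No paired analysis was possible because each group had 1 library. Depth limits single genes: 26 of 87 members had intervals spanning 0, and complex II rested on 1307 injured and 836 uninjured UMIs.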

Other observations

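The lists of mitochondrial ribosomal and import genes had medians between that of the members (0.38) and that of all genes (−0.15). Of 75 measured mitochondrial ribosomal proteins, which translate the 13 mitochondrially encoded subunits, 57 stood higher in the injured library, beside 41.1% of all genes, and 9 (12%) were at least 1.5-fold higher, beside 14.4%, with a median log2 ratio of 0.23. Mrpl19 was the highest, with 138 injured and 46 uninjured UMIs (1.02, 0.53 to 1.53), and Mrps35 and Mrps26 the lowest, with 34 and 48 UMIs (−1.06) and 79 and 109 UMIs (−1.03). Of 29 measured import genes, which carry nuclear-encoded subunits into the organelle, 22 stood higher and 3 (10.3%) were at least 1.5-fold higher, beside the same shares of all genes, with a median of 0.29. Timm23, the channel of the inner membrane, had 49 injured and 14 uninjured UMIs (1.24, 0.36 to 2.21) and the receptor gene Tomm70a 52 and 19 (0.89), whereas Tomm40, the channel of the outer membrane, had 42 and 52 (−0.87, −1.49 to −0.26).

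Cytosolic ribosomal protein genes, another large set of short and abundant transcripts, took 14.4% of UMIs in injured and 12.8% in uninjured cells, a log2 ratio of 0.18 (0.17 to 0.18), below the 0.45 of the members.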
